A study of Mus musculus with 8 samples.

Results

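Oligodendrocytes in tumour regions dissected from brains with GL261 gliomas were compared between ACOD1 knock-out (KO) and wild-type (WT) mice. Cells were taken from the 1000 barcodes with the most molecules in each library that held at least 1000 genes. A cell was an oligodendrocyte where Mobp, Mog, Mag, Cldn11 and Ermn together held at least 20 of every 10000 of its UMIs (unique molecular identifiers, each counting 1 captured RNA molecule), with at least 3 of the 5 genes detected, and where the tumour genes Col9a1, Lect1 and Rhox5 together held fewer than 10 per 10000. This left 226 oligodendrocytes among 4807 kept cells of the 6 tumour-bearing libraries, 144 from WT and 82 from KO mice. The whole series held 5733 kept cells in 8 libraries, with a further 151 oligodendrocytes in the 2 naïve libraries.

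The study used Drop-seq, which captures 3′ ends of RNA from single cells on barcoded beads in droplets. GL261 is a glioma line derived from the same mouse strain as the host, and 500 of its cells were implanted in the brain of mice (C57BL/6 by the labels, C57BL/6N by the methods) labelled Irg1/Acod1 +/+ (WT) or Irg1/Acod1 -/- (KO). By the methods the KO allele carries a cassette inserted in the gene. The tumour was taken at a volume of 5 to 10 mm3 (early), 20 to 25 mm3 (intermediate) or 30 to 35 mm3 (late), with 1 library and 1 mouse for each genotype and stage. By the methods the tissue was the tumour core region, outlined on a magnetic resonance scan. Each naïve library, WT or KO, came from brains without a tumour and its title joins a pair of animals. By the methods WT mice were littermates and age-matched, and the labels used here give no age. By the methods the WT early and the KO intermediate mouse were female and the other four male, and Xist was found at 624 and 586 CPM (UMIs of the gene scaled to 1000000 UMIs summed over the oligodendrocytes of a library) in the oligodendrocytes of those mice and at 0 in the other four libraries. The 3 libraries of a genotype therefore differ in stage. In the gene fits with the stage as a block, p-values measure the spread between mice after the stage is taken out. The permutation tests of shares and depth ignore the stage unless stated.

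Oligodendrocytes wrap axons of the central nervous system in myelin, for which they make large amounts of myelin basic protein (Mbp). They are not professional immune cells, but like most cells they answer interferons by transcription of genes for MHC class I chains, for the immunoproteasome that cuts peptides for those chains, and for GTPases that act against intracellular pathogens. ACOD1 makes itaconate from an intermediate of the tricarboxylic acid cycle, chiefly in activated macrophages.

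The targeted gene gave few molecules. Acod1 had 2 UMIs in the oligodendrocytes of the WT early library and 0 in those of the other five tumour-bearing libraries. In the other nontumour cells it had 140, 5 and 4 UMIs in the WT early, intermediate and late libraries and 27, 26 and 29 in the KO ones. Because 3′ ends are counted, these UMIs do not show whether the inserted cassette stops the protein, and they do not check the labels. KO and WT below therefore stand for the libraries so labelled.

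The label of the cells was checked with genes the rule did not use. Mbp averaged 7618 CPM in the oligodendrocytes of the 6 libraries against 121 in the other nontumour cells, and Cnp 3233 against 84.8. Pdgfra, the defining receptor of oligodendrocyte precursors, was at 0 in all 6 libraries, and the lymphocyte genes Cd3e and Trac had 2 and 5 UMIs in all. The precursor gene Cspg4 had 10 UMIs. Other markers reached higher levels in single libraries, with microglial C1qa at up to 495 CPM, macrophage Lyz2 at 2407 and astrocyte Slc1a2 at 455. The 14 microglia markers summed to 382, 60 and 3506 CPM in WT early, intermediate and late, and to 403, 117 and 2925 in KO. The marker score had a median of 189 per 10000 and ran from 24 to 379, 6 cells lay between 20 and 40, and 26 nontumour cells lay just outside, between 10 and 20. Of the 226 cells, 15 held over 10 per 10000 UMIs of another cell type's defining genes, 8 of them WT and 7 KO. No oligodendrocyte shared its barcode with a kept cell of another library, where 2 barcodes in all were kept more than once. Summed UMIs ran from 69412 in the KO early library to 305985 in the WT early library, and 3 UMIs, the limit that a count of 0 allows, corresponded to between 9.80 and 43.2 CPM.

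The share of oligodendrocytes among captured nontumour cells was lower in each KO library than in each WT library. The p was the smallest that each permutation test allows, and above 0.05. The share was 18.7% in WT early, 26.6% in WT intermediate and 24.3% in WT late, and 10.9%, 10.8% and 9.19% in the KO libraries of those stages. All 3 KO shares lay below all 3 WT shares, with means of 10.3% ± 0.952 (SD, n = 3) and 23.2% ± 4.08 (SD, n = 3). The difference of -12.9 percentage points had a two-sided exact permutation p of 0.1 with the stage ignored. That is the smallest that 3 against 3 libraries can give. With genotypes swapped only within a stage the exact permutation p was 0.25, also the smallest possible. Without a tumour the shares were 17.9% (WT) and 14.7% (KO), with exact 95% binomial intervals of 14.5 to 21.7% and 11.6 to 18.2% that overlap and cover counting error only. With oligodendrocytes that held other cell types' genes left out, the naïve shares were 13.4% (WT, 10.4 to 17.0%) and 7.06% (KO, 4.81 to 9.92%).

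**Figure D1:**
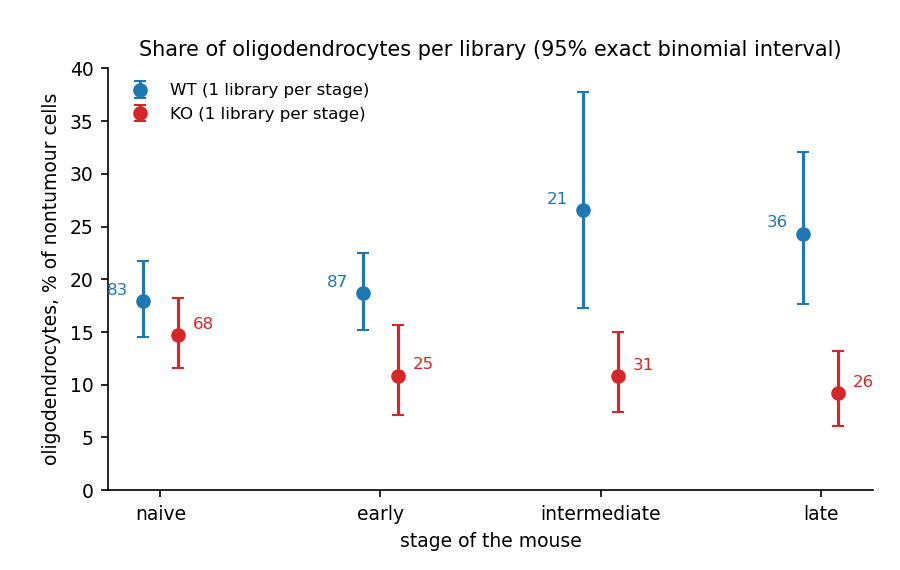
Share of oligodendrocytes among nontumour cells (percent) for each library by stage, WT in blue and KO in red, with exact 95% binomial intervals and the number of oligodendrocytes beside each point. The 3 tumour-bearing KO libraries sit between 9.19 and 10.9%, below the 3 WT libraries at 18.7 to 26.6%.

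These shares also move with the number of other cells. The oligodendrocytes themselves numbered 87, 21 and 36 in the WT and 25, 31 and 26 in the KO libraries in the order of the stages, which overlap, while the other nontumour cells numbered 379, 58 and 112 against 205, 256 and 257. Among all kept cells, tumour cells included, the share was 11.9, 2.10 and 5.03% in WT and 3.40, 3.68 and 3.32% in KO, again overlapping. The exact permutation p was 0.4 (two-sided), and 0.5 with swaps only within a stage. The part of the other cells in the share was not tested. The median UMIs per oligodendrocyte were 3004 ± 340 (SD, n = 3) in WT and 2733 ± 572 (SD, n = 3) in KO. The difference lay within their spread (exact permutation p = 0.6, two-sided, and 0.75 with swaps only within a stage).

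Across genes, 1 of 2060 passed the test between KO and WT. Ifi27l2a, a small mitochondrial membrane protein gene induced by interferon, rose in KO oligodendrocytes, and no gene fell. It was present at 324, 227 and 251 CPM in the WT early, intermediate and late libraries and at 2147, 860 and 903 in the KO ones. The lowest KO library stood well above the highest WT library. The fitted log2 fold change was 2.19 with a standard error of 0.28, or 4.55-fold, with an adjusted p of 0.0124 (edgeR's quasi-likelihood test with the stage as a block, Benjamini-Hochberg adjustment over all 2060 genes). Naïve oligodendrocytes held 51.6 (WT) and 17.3 (KO) CPM of it, from 15 and 4 UMIs. In the tumour-bearing libraries a UMI of Ifi27l2a was found in 16.1, 23.8 and 19.4% of WT and 40, 45.2 and 46.2% of KO oligodendrocytes. The cell with the most held 25.3, 52.6 and 32.4% of its UMIs in WT and 26.2, 23.9 and 27.1% in KO. The WT intermediate value rests on 19 UMIs. The gene lies on chromosome 12 (103442167 to 103443680, minus strand, GRCm38, GENCODE M21).

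The call of Ifi27l2a is 0.0485% of the genes tested, and it is lost without the block. Its adjusted p by edgeR was 0.198 without the stage in the fit, where the log2 fold change was 2.22, and 0.24 with sex in place of the stage, where it was 2.18. At an unadjusted p under 0.05, 58 genes (2.82%) were higher and 40 (1.94%) lower in KO, and DESeq2 called 1 gene, the same one, higher and 0 lower, with 49 genes at an unadjusted p under 0.05. No gene other than Ifi27l2a passed, and their values below are levels and fitted differences. Counts of genes whose genotypes did not overlap use levels scaled by edgeR (TMM), and all other levels are CPM.

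The higher genes with the next smallest p-values, Psmb10, B2m and H2-D1, act in antigen presentation. B2m encodes the light chain of MHC class I. It stood at 5262, 562 and 2001 CPM in WT early, intermediate and late oligodendrocytes, and at 10632, 6343 and 9018 in KO. All 3 KO values lay above all 3 WT values, and the WT early library stood close to the lowest KO one. The fitted log2 fold change was 2.16 (standard error 0.40, edgeR adjusted p = 0.112). The naïve libraries held 251 (WT) and 229 (KO), so that each tumour-bearing library stood above both, WT intermediate by the least.

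H2-D1 and H2-K1 encode classical heavy chains of MHC class I. H2-D1 was at 2650, 191 and 678 CPM in WT and at 4538, 3411 and 3414 in KO, in the order early, intermediate and late. H2-K1 was at 1052, 227 and 454 in WT and at 1268, 1349 and 2097 in KO. For both the genotypes did not overlap, and the gap was smallest between the early libraries, where the log2 ratio of H2-K1 was 0.27 (exact binomial 95% interval -0.09 to 0.61, counting error only) against 2.57 and 2.21 at the later stages. The fitted values of H2-D1 (2.24, standard error 0.49) and H2-K1 (1.61, standard error 0.41) had adjusted p-values of 0.216 and 0.309 by edgeR.

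H2-T23 encodes a nonclassical class I chain that presents leader peptides. It was at 458, 0 and 61.0 CPM in WT and at 850, 518 and 602 in KO. Its 53 UMIs in the KO intermediate library against 0 in the WT one make it at least 14.4-fold higher there, measured against 3 UMIs per library. Psmb10, a catalytic subunit of the immunoproteasome, was at 81.7, 12 and 40.7 in WT and at 274, 147 and 310 in KO, with a fitted log2 fold change of 2.34 (standard error 0.41, edgeR adjusted p = 0.110). For both genes the KO libraries stood above all WT libraries.

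**Figure D2:**
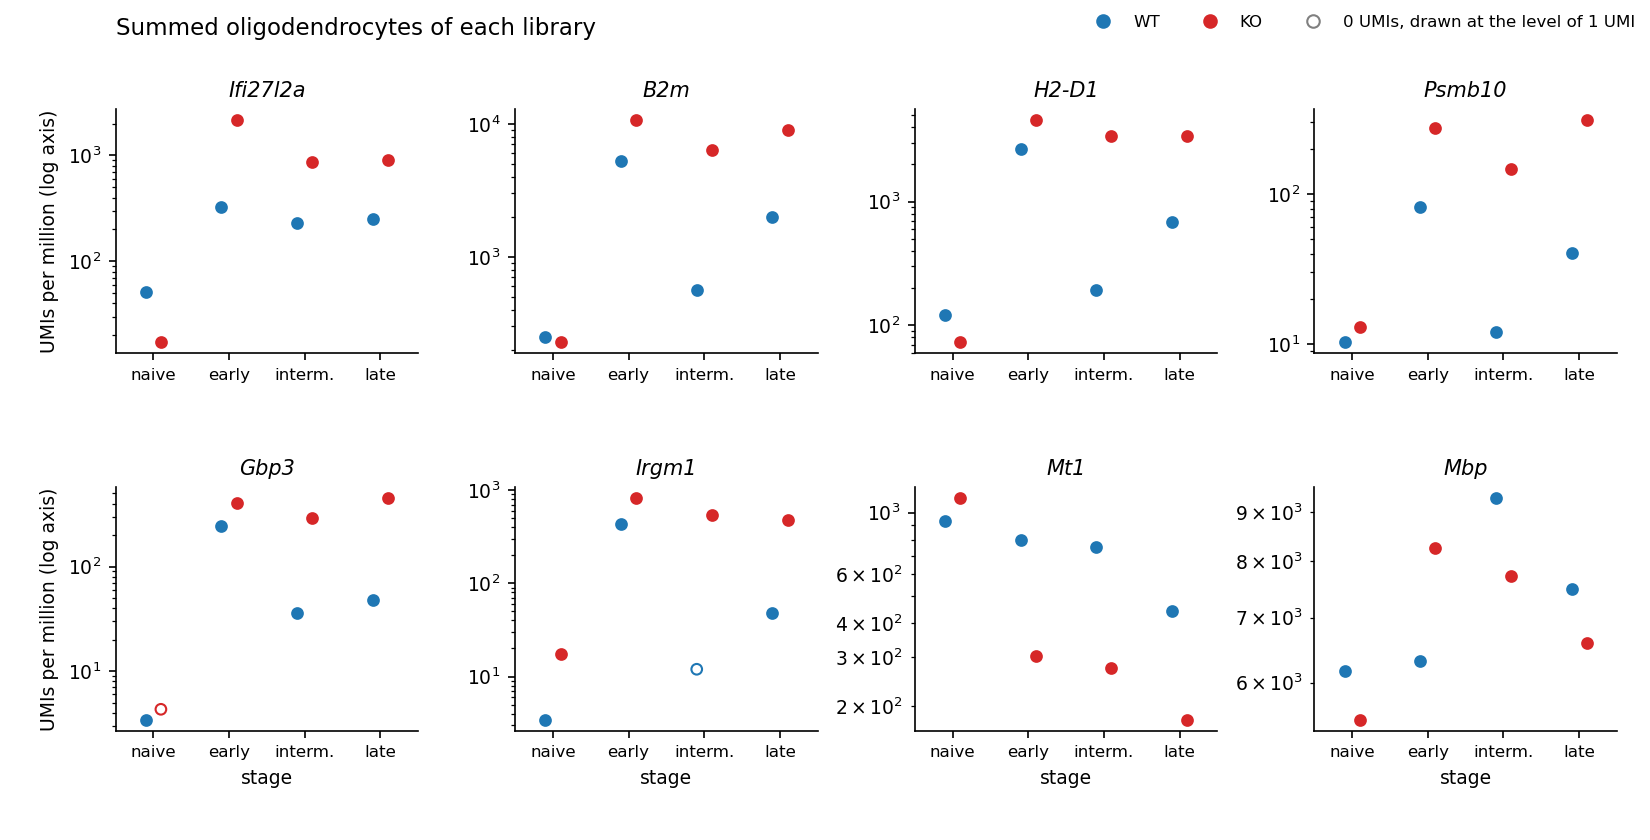
Summed level of 8 genes in the oligodendrocytes of each library (CPM, log axis) by stage, WT in blue and KO in red, with open circles for 0 UMIs drawn at the level of 1 UMI. Ifi27l2a, B2m, H2-D1, Psmb10, Gbp3 and Irgm1 are higher in KO at each tumour stage, Mt1 is lower in KO at each tumour stage, and the Mbp points of both genotypes overlap.

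Of the 28 listed genes of MHC class I and antigen processing 20 could be tested and 0 were called. At an unadjusted p under 0.05, 18 were higher, against 2.82% of all genes tested. The 20 had a median log2 fold change of 2.20, against -0.0014 over all 2060 genes. That median was 0.99 without WT late, 1.09 without KO late, 3.06 without WT early and 3.07 without KO early. With either library of a stage left out, the fit compares the genotypes in the other stages only. The WT and KO values of a stage are therefore not separate checks. In 6 of the 20 the KO libraries stood above all WT libraries, where 4.71% of all genes did so and 3.79% stood below. A gene is tested if it is abundant in the libraries of either genotype, so a gene high in a single genotype is more likely to be tested. The counts of this and the other lists therefore describe the tested members only. Summed over all 28 genes the level was 13465, 2812 and 6117 CPM in WT and 22676, 15481 and 26942 in KO, 1.68-fold, 5.50-fold and 4.4-fold higher in KO at the 3 stages.

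The list also holds 4 genes of MHC class II, which professional antigen-presenting cells make. Cd74, H2-Aa, H2-Ab1 and H2-Eb1 together were at 575, 12 and 13.6 CPM in WT and at 634, 215 and 5247 in KO, so that the KO late library stood apart. The macrophage gene Lyz2 also stood at 2407 in that library against 9.77 to 101 in the other five, with 68.4% of its UMIs in 1 cell, and the 12 macrophage markers summed to 5417 against 29 to 259. Without the 15 cells that held other cell types' genes, Cd74 in KO late was 223 and Lyz2 was 0, while B2m was still 8036 and H2-D1 still 3278, and Ifi27l2a had a log2 fold change of 2.18 with an edgeR adjusted p of 0.0242. The 16 tested genes outside class II had a median log2 fold change of 1.74.

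Of the 3 lists related to interferon, GTPases had the widest ratio of summed levels at the later stages. Igtp and Irgm1 belong to the immunity-related GTPases and Gbp3 to the guanylate-binding proteins, families that attack the vacuoles of intracellular pathogens. Igtp was at 435, 0 and 20.3 CPM in WT and at 792, 264 and 545 in KO, in the order early, intermediate and late. Irgm1 was at 435, 0 and 47.5 in WT and at 821, 538 and 480 in KO. Gbp3 was at 242, 35.9 and 47.5 in WT and at 403, 293 and 451 in KO. Of these, Igtp alone overlapped between the genotypes, since the WT early library stood above KO intermediate.

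Iigp1, an immunity-related GTPase, was at 637, 0 and 6.78 CPM in WT and at 1095, 596 and 602 in KO, from 195, 0 and 1 UMIs against 76, 61 and 64. The KO intermediate level was at least 16.6-fold higher than that of WT, measured against 3 UMIs per library. Its fitted log2 fold change was 2.79 (standard error 0.77, edgeR adjusted p = 0.339), and in both naïve libraries it was at 0. The genotypes overlapped, since WT early stood above both later KO libraries. Of 24 listed GTPases 9 were tested and 0 were called. At an unadjusted p under 0.05, 7 were higher, against 2.82% of all genes tested, and the 9 had a median log2 fold change of 1.95. Summed over the list, KO was 1.51-fold higher at the early, 30.3-fold at the intermediate and 16.6-fold at the late stage.

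The summed level of type I interferon-stimulated genes was 2.68-fold, 2.99-fold and 3.14-fold higher in KO at the 3 stages. Ifit3, whose protein binds foreign RNA together with its relatives, was at 271, 12 and 13.6 CPM in WT and at 562, 137 and 677 in KO. Ifit2 was at 173, 35.9 and 27.1 in WT and at 389, 88 and 489 in KO. For both, WT early stood above KO intermediate, so that the genotypes overlapped. Ifi27, near Ifi27l2a in the genome, was at 409, 287 and 393 in WT and at 475, 518 and 564 in KO, a fitted log2 fold change of 0.50 (standard error 0.28, edgeR adjusted p = 0.957). Of 36 listed genes 12 were tested and 1 was called (Ifi27l2a). At an unadjusted p under 0.05, 11 were higher, against 2.82% of all genes tested, and the 12 had a median log2 fold change of 1.75. The summed level was 3052, 1173 and 2584 CPM in WT and 8183, 3509 and 8125 in KO.

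Together the MHC, GTPase and type I lists hold 40 tested genes, of which 39 had a fitted value above 0 and 35 were among the 58 genes higher at an unadjusted p under 0.05. The lists were chosen with earlier results of these data known, and the filter favours genes high in a single genotype. These counts are therefore a description and no independent evidence. Of 19 genes of interferon signalling 2 could be tested, 0 were called, and Stat3, a transcription factor of cytokine receptors, had a fitted log2 fold change of 0.56 (standard error 0.48). The interferon genes Ifng and Ifnb1 had 0 UMIs in the oligodendrocytes of all 8 libraries, and were looked up after other values were seen.

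**Figure D3:**
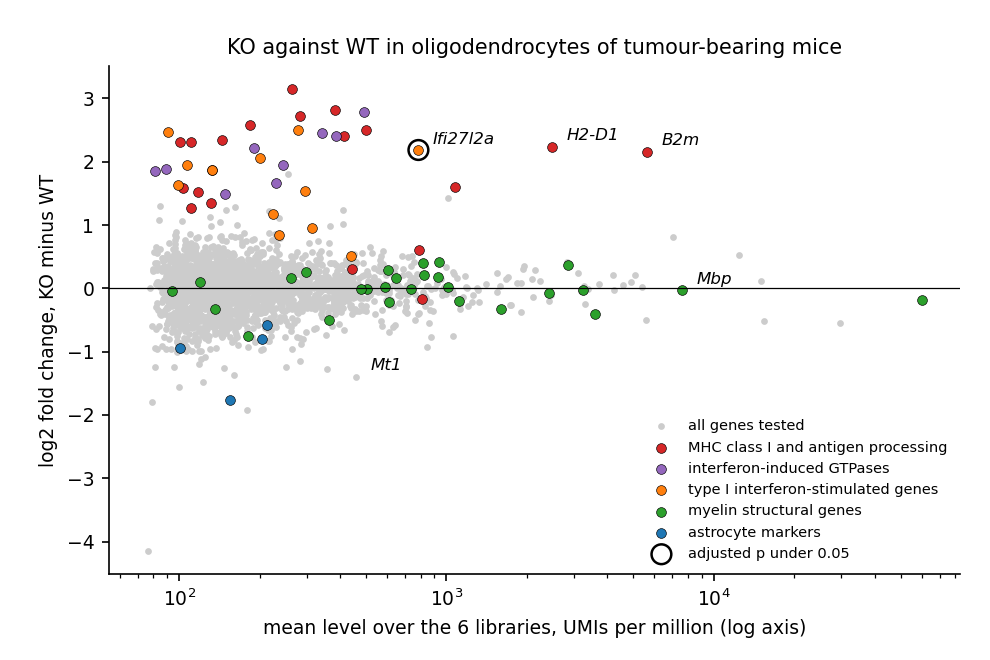
Fitted log2 fold change (KO minus WT) of each of the 2060 genes tested against its mean level over the 6 libraries (CPM, log axis), with 5 gene lists in colour and a ring around the 1 gene with an adjusted p under 0.05. MHC, GTPase and type I interferon genes lie mostly between 1 and 3, myelin genes around 0 and astrocyte markers below 0.

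The WT early library stood apart from the other WT libraries in these genes. Its oligodendrocytes held 3154 CPM of the GTPase list against 96 in WT intermediate and 264 in WT late, and KO held 4754, 2903 and 4382. Without the WT early library the fit, which then rests on the intermediate and late pairs, called 47 genes higher, 35 of them in the MHC, GTPase and type I lists, and 12 lower. Without the KO early library, where the fit rests on the same pairs, it called 42 higher, 31 of them in those lists, and 16 lower. Leaving out WT intermediate or WT late left 0 calls in either direction, and without KO intermediate Ifi27l2a also lost its call (edgeR adjusted p = 0.183) while 1 other gene, Ly6a, was called higher. Leaving out KO late gave 3 higher, Ifi27l2a among them, and 3 lower. With 1 library of a stage left out the fit has 1 residual degree of freedom. Sex splits the 6 libraries in the same way as the numbering of the deposited tables, whose meaning is not stated. Within the male libraries B2m was at 562 and 2001 in WT and 10632 and 9018 in KO, and within the female pair at 5262 in WT and 6343 in KO.

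Single cells varied widely within a library. The MHC list held a median of 63.3 of every 10000 UMIs in WT early oligodendrocytes, 21.2 in WT intermediate and 31.7 in WT late, against 193, 81.3 and 218 in KO and 18.4 and 17.9 in the naïve libraries. After thinning each cell to 1500 UMIs, which left out none, a UMI of the GTPase list was found in 54.0% of WT early, 9.52% of WT intermediate and 19.4% of WT late oligodendrocytes (exact 95% intervals 43.0 to 64.8, 1.17 to 30.4 and 8.19 to 36.0%). In KO the shares were 88, 58.1 and 84.6% (68.8 to 97.5, 39.1 to 75.5 and 65.1 to 95.6%). Without thinning they were 65.5, 28.6 and 36.1% in WT and 100, 71.0 and 88.5% in KO. In naïve oligodendrocytes, which show how often the list is met without a tumour, the thinned shares were 3.61% (WT) and 8.82% (KO). In WT late 1 cell held 50.8% of the B2m UMIs of the library, and without the cells that carried other cell types' genes B2m there was 1083.

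**Figure D4:**
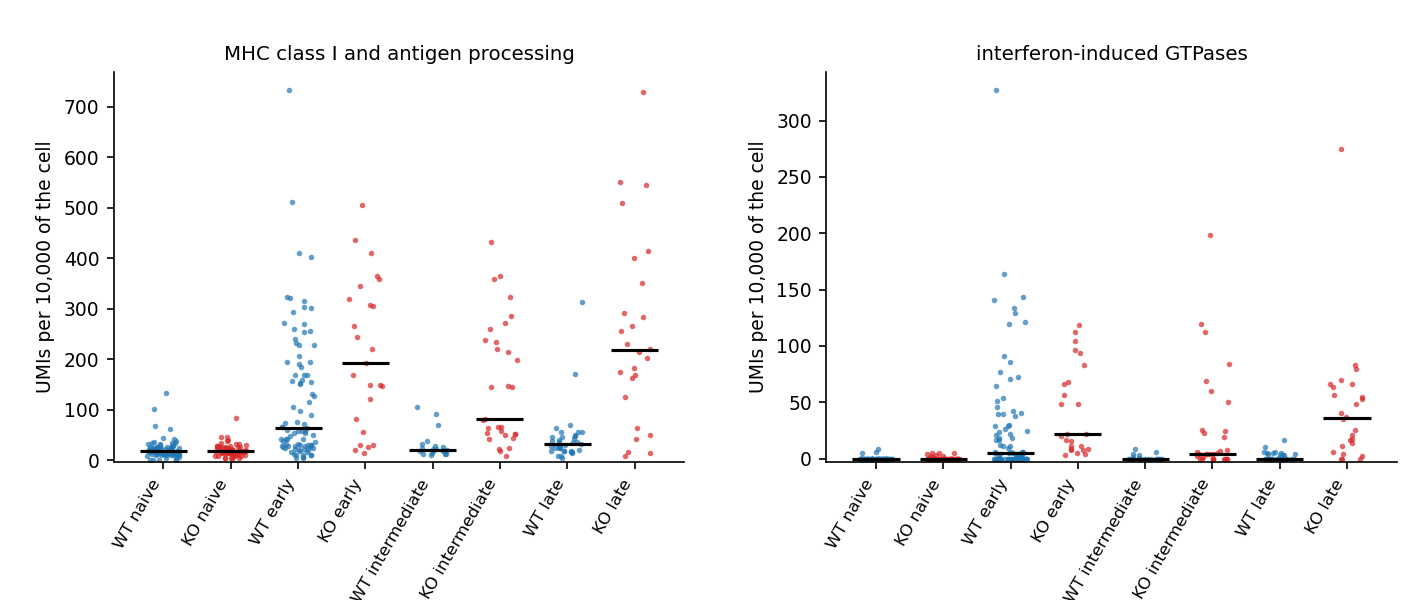
UMIs per 10,000 of each oligodendrocyte for the MHC class I and antigen processing list and for the interferon-induced GTPase list, 1 point per cell by library, WT in blue and KO in red, with a black line at the median. The MHC medians are 193 in KO early, 81.3 in KO intermediate and 218 in KO late, against 63.3 in WT early, 21.2 in WT intermediate, 31.7 in WT late and 18.4 and 17.9 in the naïve libraries.

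RNA of the same genes was found outside oligodendrocytes. In the other nontumour cells the GTPase list summed to 2778, 1013 and 667 CPM in WT and to 3832, 3128 and 5397 in KO, 1.38-fold, 3.09-fold and 8.09-fold higher in KO at the 3 stages. Barcodes ranked 2001 to 3000 by UMIs had 2858, 1787 and 753 in WT and 5315, 4006 and 6309 in KO. For this list the KO libraries were thus higher at each stage in all 3 kinds of barcode. In 5 of the 6 libraries, all 3 KO ones included, the oligodendrocytes held less of the list than the low barcodes of their own library, with 96 and 264 in WT intermediate and late and 4754, 2903 and 4382 in KO, and only in WT early, at 3154, did they hold more. Ifi27l2a in the low barcodes was at 430, 741 and 492 CPM in WT and at 740, 721 and 525 in KO. It was thus lower in KO at the intermediate stage there. How much of the KO level in oligodendrocytes came from free RNA was not tested.

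**Figure D5:**
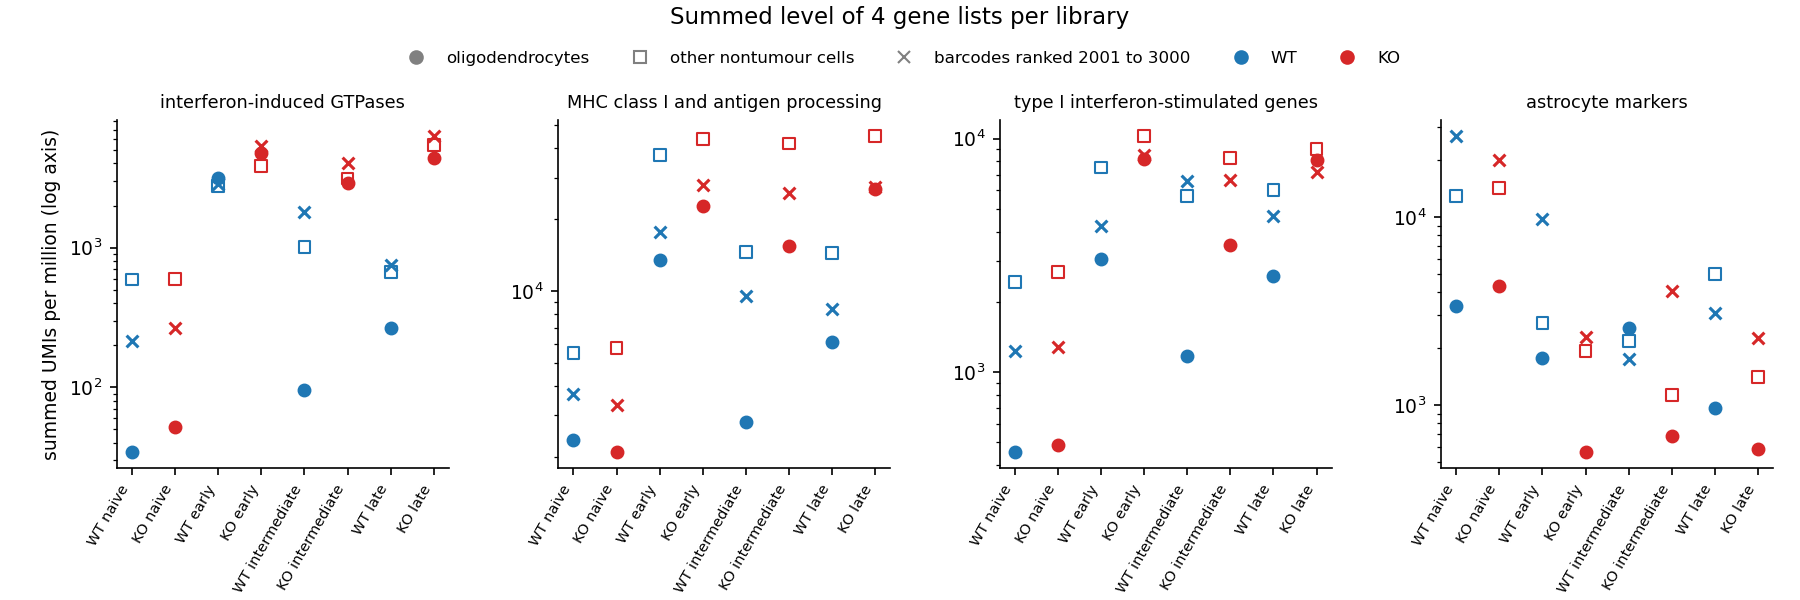
Summed level of 4 gene lists (CPM, log axis) in each library, for oligodendrocytes (filled circles), other nontumour cells (open squares) and barcodes ranked 2001 to 3000 (crosses), WT in blue and KO in red. The 3 interferon-related lists are higher in KO than in WT at each tumour stage in all 3 kinds of barcode. The gap is as little as 6683 against 6608 CPM for the type I list in the low barcodes of the intermediate stage. The astrocyte list is lower in KO oligodendrocytes at each tumour stage, and higher in the naïve KO library (4297 against 3368 in WT).

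Whether the genotype difference was larger in oligodendrocytes than in the other nontumour cells of the same libraries was tested gene by gene. By edgeR 0 of 7512 genes passed (268 at an unadjusted p under 0.05), and by DESeq2 also 0 (197 at an unadjusted p under 0.05). Ifi27l2a, at 867, 397 and 593 CPM in WT and 1271, 1012 and 853 in KO other cells, differed more in oligodendrocytes by 1.29 on the log2 scale (standard error 0.42, edgeR adjusted p of 1). Ifit1 had a difference of 2.67 (standard error 0.61) and the interferon-induced surface protein gene Ly6a of 3.44 (0.84), also without passing. The endothelial gene Flt1 (5.32, standard error 1.33), Magi3 (5.05, 1.27) and Ubd (-4.77, 1.18) completed the 5 smallest p-values beside those. In oligodendrocytes the 12 endothelial markers summed to 190, 239 and 258 CPM in WT early, intermediate and late, and to 1498, 195 and 1081 in KO. The part of endothelial RNA in the KO values was not tested. With no gene passing, no difference was shown to be particular to oligodendrocytes.

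Against the naïve pair, which is 1 library for each genotype, 0 of 2429 genes passed by edgeR (54 at an unadjusted p under 0.05) and 0 by DESeq2 (12). The genotype difference of Ifi27l2a was larger with a tumour by 3.77 on the log2 scale (standard error 0.78, edgeR adjusted p = 0.47). The smallest adjusted p, 0.349, belonged to Slc1a2, the glutamate transporter of astrocytes, at -3.19 (standard error 0.59). Of the 151 naïve oligodendrocytes, 62 held over 10 per 10000 UMIs of another cell type's defining genes, against 15 of the 226 near tumours. Without them 59 of 83 WT and 30 of 68 KO naïve oligodendrocytes remained. Naïve B2m was then 53.9 (WT) and 97.2 (KO) CPM, so the naïve levels depend on these cells. In naïve oligodendrocytes H2-D1 was at 120 (WT) and 73.6 (KO) and the GTPase list summed to 34.4 (WT) and 51.9 (KO), far below all KO tumour-bearing libraries.

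Promoters are shown because the genes that differed most in order of p are known targets of interferon-activated transcription factors. RefSeq windows of GRCm38.p6, from 250 bases before to 50 after each annotated start, were searched on both strands for GAAA followed after any 2 bases by GAAA, a form of the interferon-stimulated response element, and for TTC followed after any 3 bases by GAA, the gamma-activated site. Of 32851 windows 3.44% held the first and 8.30% the second. Counted by gene, 1547 of all 2060 genes tested had a window, of which 4.14% held the first and 7.89% the second. Of the 40 tested genes of the MHC, GTPase and type I lists 29 had a window, of which 12 (41.4%) held the first motif and 7 (24.1%) the second. These lists were compiled as genes known to respond to interferon, so these shares describe the lists and bear in no way on KO against WT. Among the 8 genes higher in KO at all 3 stages with the smallest p, Ifi27l2a had no entry, B2m, Gbp3, Ifit3 and H2-T23 held the first motif, and Psmb10, H2-D1 and Ifit2 did not in these windows. The sequences below read 5′ to 3′ along the gene, with the first motif in capitals, in its reverse complement where it lies on the opposite strand.
B2m (chr2:122147437-122147736, plus strand): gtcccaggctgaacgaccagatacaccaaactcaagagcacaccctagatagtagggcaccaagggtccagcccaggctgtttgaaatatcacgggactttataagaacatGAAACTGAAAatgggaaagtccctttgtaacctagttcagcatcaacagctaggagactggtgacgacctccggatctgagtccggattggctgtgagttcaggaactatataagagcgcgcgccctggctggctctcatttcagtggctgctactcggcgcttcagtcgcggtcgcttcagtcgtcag
Gbp3 (chr3:142559794-142560093, plus strand): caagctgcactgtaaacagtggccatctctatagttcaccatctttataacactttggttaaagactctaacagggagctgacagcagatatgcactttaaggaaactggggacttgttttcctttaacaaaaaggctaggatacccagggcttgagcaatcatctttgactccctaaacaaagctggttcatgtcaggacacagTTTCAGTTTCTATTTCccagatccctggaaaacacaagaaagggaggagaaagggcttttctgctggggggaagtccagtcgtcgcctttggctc
Ifit3 (chr19:34583279-34583578, plus strand): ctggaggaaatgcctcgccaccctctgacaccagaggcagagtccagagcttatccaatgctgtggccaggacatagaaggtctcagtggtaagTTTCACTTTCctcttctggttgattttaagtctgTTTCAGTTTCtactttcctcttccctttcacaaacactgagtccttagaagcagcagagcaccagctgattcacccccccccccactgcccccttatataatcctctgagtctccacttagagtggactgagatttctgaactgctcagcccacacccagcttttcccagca
H2-T23 (chr17:36032652-36032951, minus strand): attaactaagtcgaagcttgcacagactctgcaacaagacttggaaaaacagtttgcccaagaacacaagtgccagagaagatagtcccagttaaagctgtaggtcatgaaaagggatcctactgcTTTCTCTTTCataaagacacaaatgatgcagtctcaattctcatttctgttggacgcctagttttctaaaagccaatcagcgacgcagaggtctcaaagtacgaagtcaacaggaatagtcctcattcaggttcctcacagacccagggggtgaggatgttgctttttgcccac
H2-D1 (chr17:35262844-35263143, plus strand, no match): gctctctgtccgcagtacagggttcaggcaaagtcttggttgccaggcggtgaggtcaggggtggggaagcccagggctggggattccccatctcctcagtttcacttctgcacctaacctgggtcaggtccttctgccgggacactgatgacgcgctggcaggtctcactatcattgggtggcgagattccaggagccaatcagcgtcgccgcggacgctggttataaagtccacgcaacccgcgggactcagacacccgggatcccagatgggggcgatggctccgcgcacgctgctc
The match began 139 bases before the start in B2m and 124 before it in H2-T23. Gbp3 held 2 overlapping matches at 45 and 39 bases before the start, and Ifit3 held 2 separate ones at 156 and 122. A match describes letters and shows no binding.

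Of the genes with lower values in KO and the smallest p-values, Mt1 and Plpp3 are described first. Plpp3, a lipid phosphatase abundant in astrocytes, was at 222, 323 and 176 CPM in WT and at 72.0, 48.9 and 84.6 in KO. Mt1, a metallothionein that binds zinc, was at 794, 754 and 441 in WT and at 303, 274 and 179 in KO. For both the KO libraries stood below all WT libraries, and neither passed, with fitted log2 fold changes of -1.76 and -1.40 (standard errors 0.40 and 0.28, edgeR adjusted p = 0.281 and 0.151).

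The 13 astrocyte markers moved with these values. They summed to 1771, 2561 and 963 CPM in WT and to 562, 684 and 583 in KO oligodendrocytes, with Slc1a2 at 317, 455 and 74.6 against 43.2, 88 and 9.40 and no marker of the list at 0 in all 6 libraries. In the other nontumour cells of the same libraries the list summed to 2720, 2201 and 4993 in WT and to 1948, 1129 and 1412 in KO. Without the 15 cells with other cell types' genes, Plpp3 was at 118, 89.8 and 127 in WT against 78.2, 50.1 and 106, while Mt1 stayed at 715, 590 and 478 against 282, 281 and 164. The part of astrocyte RNA in these fitted values was not tested. R3hdm1, Cpe, Luc7l, Cst3 and Dpysl2 followed among the lower genes, with fitted log2 fold changes from -1.48 (R3hdm1) to -0.93 (Cst3) and edgeR adjusted p-values of 0.326 or more, and Cst3, cystatin C, turned to 0.25 without the 15 cells.

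Myelin genes overlapped between the genotypes. Mbp was at 6321, 9298 and 7494 CPM in WT and at 8269, 7731 and 6592 in KO, with a fitted value of -0.03 (standard error 0.23, edgeR adjusted p = 0.986). Of 29 myelin genes outside the cell rule 27 were tested, 0 had an unadjusted p under 0.05, their fitted values ran from -0.76 (Adamts4) to 0.41, and their median was -0.01. The genes of the cell rule, given as a description because they chose the cells, had fitted values from -0.05 (Mobp) to 0.10 (Mag).

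Transcription factors that hold oligodendrocyte identity overlapped as well. Olig1 was at 804, 886 and 529 CPM in WT and at 836, 782 and 762 in KO. Sox10 was at 291, 371 and 332 in WT and at 475, 235 and 244 in KO. Both overlapped, with fitted log2 fold changes of 0.12 (standard error 0.26) and -0.11 (standard error 0.33). The 10 of 18 listed factors that could be tested had a median of 0.18 and 0 at an unadjusted p under 0.05. Newly formed oligodendrocyte genes had 3 of 18 tested with a median of -0.37, and none of the 13 precursor markers was abundant enough to test.

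Of the states known from mature and diseased oligodendrocytes, single genes varied with stage. Serpina3n, a protease inhibitor induced in oligodendrocytes of diseased brain, was at 170, 59.8 and 624 CPM in WT and at 735, 401 and 470 in KO. It was higher in KO at the early and intermediate stage and lower at the late stage, and its fitted log2 fold change was 1.23 (standard error 0.49, edgeR adjusted p = 0.915), and a thinned UMI was found in 11.5, 14.3 and 27.8% of WT and 24, 32.3 and 30.8% of KO oligodendrocytes. Klk6, a protease of myelinating cells, was at 193, 203 and 1716 in WT and at 2319, 626 and 1016 in KO. C4b, complement component 4, was at 513, 23.9 and 339 in WT and at 692, 498 and 395 in KO. Each overlapped between the genotypes. The 9 tested of 25 disease-associated genes had a median of 0.41 and 2 at an unadjusted p under 0.05, and complement had 2 of 14 tested, with C4b at 1.02 and Cd59a at 0.47.

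Trf encodes transferrin, which oligodendrocytes secrete to carry iron. It was at 4464, 3877 and 7100 CPM in WT and at 11237, 7526 and 7965 in KO. The KO libraries stood above all WT libraries. Its fitted value was 0.81 (standard error 0.26, edgeR adjusted p = 0.527). The ratio narrowed from 1.33 on the log2 scale at the early to 0.17 at the late stage (exact 95% intervals 1.2 to 1.46 and 0.03 to 0.30). Fth1, ferritin heavy chain, had a fitted value near 0 (0.11, standard error 0.24), and the 4 tested of 21 iron genes had a median of -0.00. Apod, apolipoprotein D, was at 8115, 8054 and 14804 in WT and at 17187, 10868 and 15638 in KO, overlapping, with 0.52 (standard error 0.25).

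Of the immediate early genes, which respond within minutes to cell stress and dissociation, 8 of 11 tested had a fitted value below 0. Fos was at 552, 2118 and 1431 CPM in WT and at 1109, 586 and 564 in KO. Fosb was at 94.8, 586 and 190 in WT and at 130, 39.1 and 37.6 in KO. Both were higher in KO at the early stage and lower later, with log2 fold changes of -0.76 (standard error 0.44) and -1.92 (standard error 0.62), adjusted p = 0.957 and 0.527 by edgeR. Nfkbia, the feedback inhibitor of NF-κB, was at 157, 95.7 and 190 in WT and at 331, 205 and 433 in KO, without overlap, with 1.11 (standard error 0.30, edgeR adjusted p = 0.336). The 11 tested of 32 genes had a median of -0.44.

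Lists tied to lipid, stress and itaconate had medians near that of all genes. Cholesterol synthesis had 7 of 25 genes tested with a median of -0.02, myelin lipid synthesis and transport 17 of 27 with -0.05, heat shock and chaperone genes 16 of 21 with 0.22, and the unfolded protein response 9 of 25 with 0.21. Oxidative stress genes that itaconate is known to act on through NRF2 or succinate dehydrogenase had 16 of 34 tested, 0 at an unadjusted p under 0.05 and a median of 0.06, with Prdx1 at -0.00 (standard error 0.26) and Sqstm1 at -0.09 (0.28). Glycolysis had 5 of 27 tested with a median of 0.56, where Pkm stood without overlap at 134, 168 and 183 CPM in WT and 202, 225 and 301 in KO. The 8 tested of 15 mitochondrially encoded genes had a median of -0.34, with mt-Rnr2 at 57728, 31892 and 16534 CPM in WT and at 15113, 42172 and 14811 in KO, overlapping. Apoptosis and p53 targets had 2 of 21 tested, Mcl1 at 0.81 and Cdkn1a at 0.41. Of all these genes 0 were called.

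The 18 genes that the study named in tumour-associated oligodendrocytes were chosen on these samples, so their direction is no independent evidence. Of them 17 were tested and 1 was called (Ifi27l2a). At an unadjusted p under 0.05, 12 were higher, against 2.82% of all genes tested. Without overlap 8 stood above WT, against 4.71% of all genes tested, and the 17 had a median log2 fold change of 1.81. Psmb8, a subunit of the immunoproteasome, was at 562, 12 and 54.3 CPM in WT and at 706, 586 and 1081 in KO, with 2.50 (standard error 0.69, edgeR adjusted p = 0.346). Jun (0.21, standard error 0.30) and Neat1 (0.24, standard error 0.30) overlapped between the genotypes.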

How the data were processed

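Single-cell libraries of 6 tumour-bearing and 2 naïve mouse brain samples were analysed. By the labels and methods the authors used Drop-seq, bcl2fastq 2.0, STAR (version not given in the sources used here), GRCm38/mm10 and the Drop-seq pipeline. The authors deposited UMI counts per gene and barcode, not normalized, in 1 table per library. The annotation is not given in the sources used here.

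Cells were chosen by the marker rule, and their counts were summed per library. Genes with enough counts (edgeR's filterByExpr, minimum count 10) were scaled by TMM and tested with edgeR 4.0.16 (R 4.3.3) by the quasi-likelihood test, KO against WT with the stage as a block (2 residual degrees of freedom), and by interaction with other nontumour cells or with the naïve libraries. Benjamini-Hochberg adjusted p was called at 0.05. Levels are CPM of the oligodendrocytes' sum. On simulated data the KO against WT test called 19.6% of 2-fold and 89.2% of 4-fold changes, the comparison with other cells 0% and 42.4%, and that with naïve libraries 4.17% and 41.3%. The changed genes were drawn only from those above the median level. The simulation had no stage effect and used the spread per gene fitted to these data. These percentages therefore do not cover less abundant genes or differences between stages. Intervals are exact Clopper-Pearson at 95% (scipy 1.17.1, Python 3.11.15) and cover counting error only. Depth ran from 69412 to 305985 UMIs per library. No doublet caller was run, and cells of both oligodendrocyte and tumour markers were removed by the rule.

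The members and gene lists were chosen with earlier results of these data known. Genes were named where called, where among the 8 each way with the smallest p that moved alike in all 3 stages with a mean of at least 50 CPM, where named by the study, as the 3 most abundant and 2 smallest p of each list, and as the 5 smallest p of each interaction. A repeat of the tests used DESeq2 1.42.0, other scaling, filters, cell rules and designs, equal depth and each library left out. Some genes the rule names are not reported here.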

Additional observations from a re-analysis of the deposited data

Results flagged for a closer look

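In the 6 tumour-bearing libraries 49 cells passed the oligodendrocyte markers but also held at least 10 per 10000 UMIs of the tumour genes, and were left out of every comparison, against 0 in the 2 naïve libraries. They drew attention as signal in cells that the comparisons do not use. They numbered 2, 13 and 8 in WT and 9, 1 and 16 in KO at the early, intermediate and late stage. Their median UMIs were 2824, near the 2773 of the oligodendrocytes and below the 4857 of tumour cells, and their median oligodendrocyte score was 39.2 per 10000, against 189 in the cells kept.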

How the results depend on the processing

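Ifi27l2a kept its direction in 17 alternatives, with log2 fold changes from 1.90 to 2.35, and passed in 11, with adjusted p from 4.68e-08 (DESeq2) to 0.494. Against 1 gene higher and 0 lower in KO, at least 500 genes per cell gave 4 and 2, the stricter cell rule 3 and 1, no filter on low counts 43 and 11 of 16682, and equal depth 2 and 0. No stage block, sex in place of the stage and the numbering set in place of the stage (added after seeing the data) each gave 0 higher and 0 lower. Leaving out 1 library gave from 0 to 47 higher and from 0 to 16 lower. The difference from other nontumour cells gave 5 genes without the filter, against 0. That from naïve libraries gave 1 with 500 genes, 1 under the stricter rule, 6 without the filter and from 0 to 14 with 1 library left out. The cause was not tested, except that fewer or more genes were tested or fewer libraries used. With 1 library left out the median of the MHC list ran from 0.99 to 3.07, that of the GTPase list from 1.38 to 4.52 and that of the type I interferon list from 1.24 to 1.85. The type I median was 1.27 at equal depth. Shares and depths kept their direction, the share difference between -15.2 and -2.89 percentage points. Over 103 named results, 1695 alternatives gave 84 newly past the threshold and 6 no longer past it, and 7 reversed. Of those, Cst3 was 0.25 without cells with other markers, and with 1 library left out Cd59a ran from -0.28 to 0.96 (-0.28 without KO late or WT late), Sgk1 from -1.65 to 0.0040 (positive without KO late or WT late) and mt-Rnr2 from -1.11 to 0.15 (positive without KO early or WT early). The stage block pairs 1 KO with 1 WT library at each stage. The labels give no replicate number by which to pair the mice otherwise.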
